A study of Mus musculus with 2 samples.

Results

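The nuclear factor I (NFI) genes Nfia, Nfib, Nfic and Nfix were followed in a DNase-seq map of the mouse limb. The map came from limb tissue of B6NCrl embryos, healthy and with male and female embryos pooled, at 11.5 days of development, and comprised 2 libraries labelled as biological replicates 1 and 2 of this single group. The labels name no mutation and no treatment, and tie both libraries to the same donor record without saying which litters or embryos were pooled. In DNase-seq, nuclei are treated with DNase I, which cuts where chromatin is open, and the cut sites are read by sequencing, so that a peak marks a stretch open to the enzyme. The members are the peaks of these 4 genes, chosen by position alone. A promoter peak had its centre no more than 1 kb from a protein-coding start of the gene, and a body peak had it between the ends of the gene record. A distal peak had its centre over 1 kb from every protein-coding start, and the nearest such start, within 500 kb, belonged to the gene. Peaks of the libraries that overlapped by at least 1 bp were joined into 1 shared peak. The rule found 206 of 174430 peaks in replicate 1, 194 of 167369 in replicate 2 and 152 of 118637 shared peaks. The peaks were 51 for Nfia, 66 for Nfib, 11 for Nfic and 24 for Nfix among the shared ones.

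NFI proteins are transcription factors that bind DNA as dimers of the same or of different members, through a DNA-binding domain at the amino end that the 4 proteins share. Their preferred site is a palindrome, TTGGC and its reverse complement GCCAA with 5 bases between, and a single arm can be bound more weakly. Nfia is known for its part in the onset of glial development, Nfib for maturation of lung and brain, Nfic for formation of tooth roots, and Nfix for the change from embryonic to fetal muscle. Open sites in the introns and the surroundings of such genes are where enhancers, the elements that set when and where a gene is transcribed, are usually sought.

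The sequences that follow are open stretches that the results turn on, on the plus strand of mm10. The first 4 are, for each gene, the shared promoter peak with the strongest signal among those that lie in no exon. For Nfia, Nfib, Nfic and Nfix these were chr4:97772256-97772405, chr4:82506376-82506545, chr10:81430356-81430525 and chr8:84799116-84799365. Short factor words, 17 in all, were searched on both strands in the central 150 bp, so letters nearer the ends of a longer stretch are not marked. Capitals mark GGGCGGG or its reverse complement, the word bound by Sp and Klf factors, which was the only word found in these 4.
Nfia promoter: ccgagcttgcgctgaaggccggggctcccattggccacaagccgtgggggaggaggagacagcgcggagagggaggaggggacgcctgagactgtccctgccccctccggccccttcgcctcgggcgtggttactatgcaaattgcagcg
Nfib promoter: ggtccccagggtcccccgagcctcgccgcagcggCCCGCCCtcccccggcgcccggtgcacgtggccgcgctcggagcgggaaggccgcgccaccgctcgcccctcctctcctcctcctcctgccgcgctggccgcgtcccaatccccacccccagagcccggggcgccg
Nfic promoter: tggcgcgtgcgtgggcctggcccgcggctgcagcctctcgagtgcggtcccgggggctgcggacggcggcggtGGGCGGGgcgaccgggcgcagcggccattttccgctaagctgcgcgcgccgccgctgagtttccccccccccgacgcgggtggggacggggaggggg
Nfix promoter: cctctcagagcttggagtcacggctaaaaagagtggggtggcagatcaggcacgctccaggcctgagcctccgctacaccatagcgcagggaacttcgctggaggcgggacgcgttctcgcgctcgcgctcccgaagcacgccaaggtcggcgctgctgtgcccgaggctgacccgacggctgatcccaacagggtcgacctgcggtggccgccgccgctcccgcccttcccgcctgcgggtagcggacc
The Sp and Klf word stood in 2 of the 17 shared promoter peaks of the NFI genes and in 27.5% of all 27765 shared promoter peaks. A match is a run of letters and not a bound site.

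The next 5 are the distal shared peak with the strongest signal at each gene and, chosen after its values were seen, the strongest peak inside Nfix that lies nearer the start of another gene. They lie at chr4:98106736-98106905 in intron 10 of Nfia, chr4:82513216-82513385 in intron 1 of Nfib, chr10:81432996-81433145 in intron 1 of Nfic, chr8:84810976-84811145 upstream of Nfix and chr8:84742696-84742845 in intron 2 of Nfix. Capitals mark the E-box CATCTG at Nfia and CAGCTG at Nfic, the single NFI arm TTGGCA upstream of Nfix and the Runx word TGTGGTT inside Nfix. In the Nfib stretch the first run of capitals is the Sp and Klf word, and the second joins the core of the CTCF site with an Sp and Klf word that overlaps it.
Nfia distal: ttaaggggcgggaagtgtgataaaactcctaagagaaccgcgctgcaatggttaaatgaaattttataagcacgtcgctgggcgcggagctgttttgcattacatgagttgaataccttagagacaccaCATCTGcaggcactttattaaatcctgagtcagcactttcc
Nfib distal: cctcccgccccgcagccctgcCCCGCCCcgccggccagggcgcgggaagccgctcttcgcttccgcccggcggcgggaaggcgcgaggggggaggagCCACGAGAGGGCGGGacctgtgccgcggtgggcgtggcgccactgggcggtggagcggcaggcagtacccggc
Nfic distal: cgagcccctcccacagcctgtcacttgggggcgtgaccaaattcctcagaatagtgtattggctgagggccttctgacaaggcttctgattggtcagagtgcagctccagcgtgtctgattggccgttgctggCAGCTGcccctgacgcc
Nfix distal: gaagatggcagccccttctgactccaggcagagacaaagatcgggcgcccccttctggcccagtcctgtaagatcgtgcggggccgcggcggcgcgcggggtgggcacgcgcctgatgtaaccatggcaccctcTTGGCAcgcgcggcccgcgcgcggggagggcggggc
Nfix intron 2: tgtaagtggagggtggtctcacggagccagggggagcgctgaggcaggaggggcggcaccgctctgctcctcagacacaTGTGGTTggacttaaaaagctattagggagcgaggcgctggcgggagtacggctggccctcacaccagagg

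Each peak carries a signal, a whole number that the authors gave it and whose scaling is not stated in the sources used here. The median over the list was 47 in replicate 1 and 39 in replicate 2, so signals were also ranked within their own list, and the mean of the ranks in both libraries is given as a percentile. A shared peak made of several peaks takes the highest of each library. The number of reads is unknown, and in whole tissue an open site in few cells and a weakly open site in many cells cannot be told apart. Nothing was contrasted between groups, so the values below are counts and levels with the spread of 2 libraries, and no test was possible. As a check of the tissue, 10 of 10 genes of the limb mesenchyme list had a shared promoter peak, against 4 of 5 for surface ectoderm, 1 of 5 for endothelium, 3 of 5 for muscle precursors, 0 of 5 for blood and 4 of 5 for neural and glial genes. Of all 21938 protein-coding genes 66.5% had one, so the shares of the ectoderm, muscle and neural lists lie near the general one. The part of each cell type in the sites of the NFI genes was not tested.

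All 4 genes had a shared promoter peak, against 66.5% of protein-coding genes, when every coding start was used. With only the 5′ end of each gene record as its start, Nfia had 3 and Nfib 1, and Nfic and Nfix had 0. Their distal counts were far apart. Nfib had 60 distal shared peaks, with 87 in replicate 1 and 75 in replicate 2 (81.0 ± 8.49, SD, n = 2). Nfia had 40, with 54 and 51 in the libraries (52.5 ± 2.12, SD, n = 2). Nfic had 9, with 11 and 10 (10.5 ± 0.707, SD, n = 2), and Nfix had 5, with 7 and 9 (8.0 ± 1.41, SD, n = 2). The order Nfib, Nfia, Nfic was the same in each library, and the gaps between these 3 exceeded the difference between libraries. Nfix lay below Nfic in both, by 4 peaks in replicate 1 and by 1 in replicate 2, but this order depends on the starts used. With 1 start per gene Nfic had 5 distal shared peaks and Nfix 8, and without the starts of other genes inside each member Nfic had 9 and Nfix 12. The median protein-coding gene had 1 distal shared peak, and 4.08% of genes had 20 or more. As many as Nfib were held by 0.141% of genes, as many as Nfia by 0.67%, as many as Nfic by 13.9% and as many as Nfix by 25.6%. By this count Nfib ranked 30th and Nfia 132nd.

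**Figure D1:**
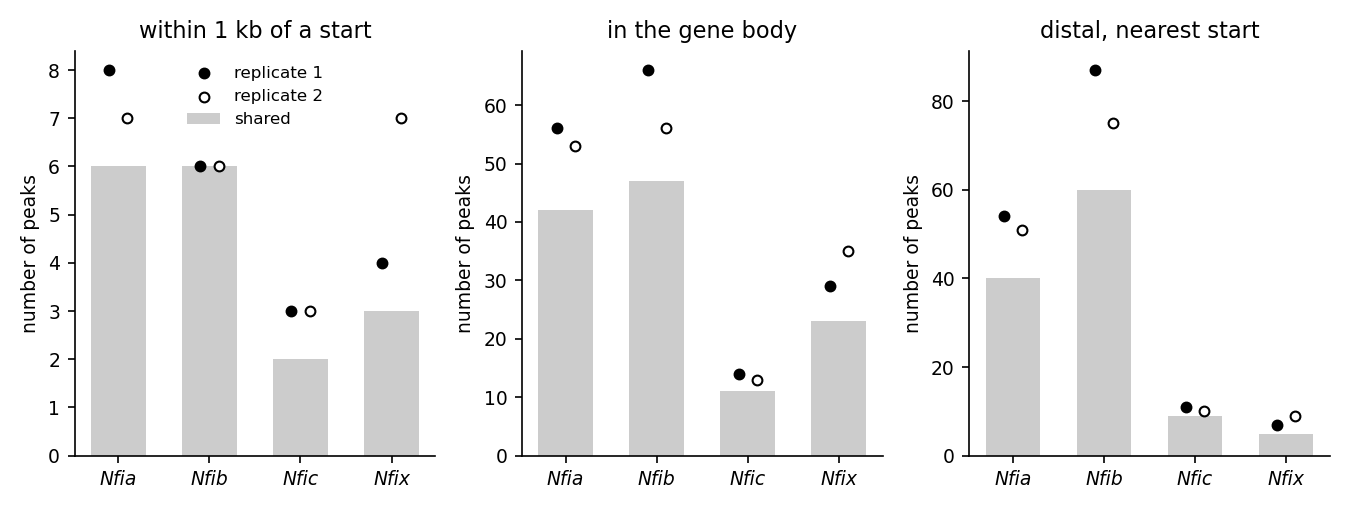
Number of peaks within 1 kb of a start, in the gene body and distal to the starts for 4 NFI genes, with grey bars for shared peaks and filled and open points for replicates 1 and 2. Nfia and Nfib stand above Nfic and Nfix in the body and distal counts of both libraries, and Nfix is the gene with more peaks in replicate 2 in every class.

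Counts in the gene body gave another order for the smaller genes. Nfib had 47 shared body peaks (66 and 56 in the libraries) and Nfia 42 (56 and 53). Nfix had 23 (29 and 35), more than the 11 of Nfic (14 and 13) in both libraries. At least as many body peaks were held by 0.251% of genes for Nfib, 0.31% for Nfia, 1.53% for Nfix and 5.6% for Nfic. The gene records differ in length, with 416 kb for Nfib, 346 kb for Nfia, 100.5 kb for Nfix and 59.5 kb for Nfic. Per 100 kb of sequence nearest to a start of the gene, Nfic had the most distal shared peaks, 14.1, followed by Nfia with 11.5, Nfix with 7.89 and Nfib with 7.76. The median gene had 2.83. Genes at least as dense made up 4.72% of those with such sequence for Nfic, 7.81% for Nfia, 17.2% for Nfix and 17.7% for Nfib. The sequence nearest to Nfib is long, 773 kb, against 349 kb for Nfia and 63.7 and 63.4 kb for Nfic and Nfix.

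**Figure D2:**
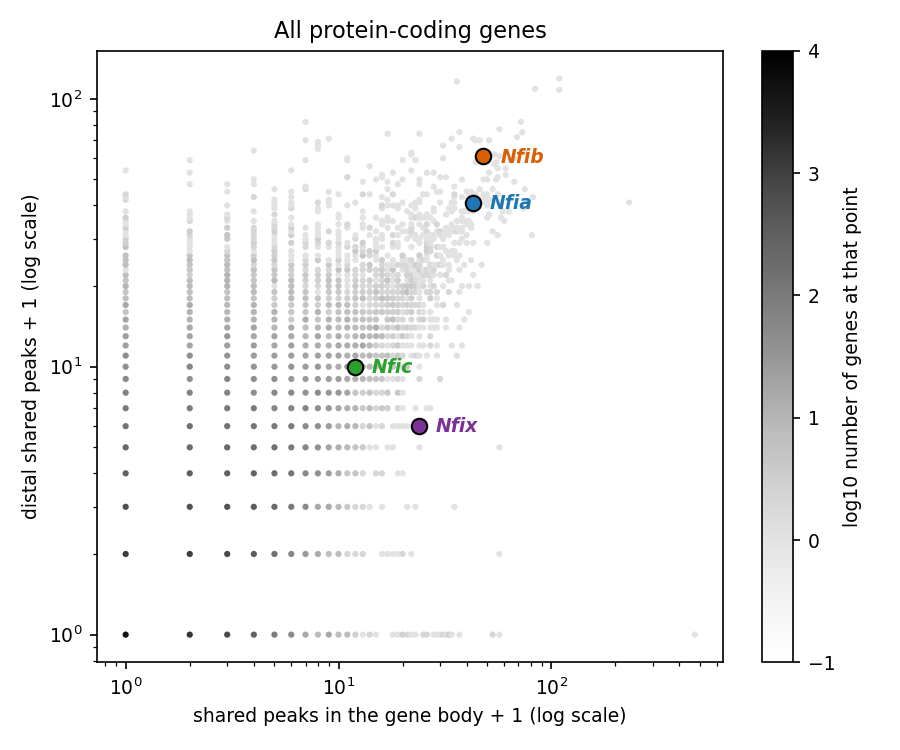
Shared peaks in the gene body against distal shared peaks for all protein-coding genes, each with 1 added and on log axes, shaded by the number of genes at a point. Nfib and Nfia lie at the upper right, Nfic lies among many other genes, and Nfix lies below most genes with as many body peaks.

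Nfia (ENSMUSG00000028565.18, chromosome 4, 97772734 to 98118874, plus strand) had 6 shared promoter peaks in 2 groups of starts. Its first start had 3 peaks in each library, all shared, and the peak printed above, 403 bp upstream, was the strongest promoter peak of the family. Its signal was 129 in replicate 1 and 132 in replicate 2, at percentile 99.5. A second peak, 607 bp inside the gene, had 117 and 113. The group of 5 starts from 97777608 to 97777834 also had 3 shared peaks, the strongest with 91 and 76. The start at 97880119, 107 kb into the gene, had no peak within 1 kb in either library. RefSeq places a further start at 97581943, 191 kb upstream of the first start used here, and no shared peak lay within 1 kb of it, with 1 peak in replicate 1 and 2 in replicate 2.

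The distal peaks of Nfia were mostly inside the gene and gathered near its end. Of 40, 32 were intronic, 7 lay upstream within the overlapping gene record of E130114P18Rik and 1 lay downstream. Intron 10 of the transcript Nfia-202 is 29.4 kb long and held 13 of them, between 98091456 and 98109325, at 211 to 229 kb from the nearest Nfia start. That start is the one at 97880119, which had no peak within 1 kb in either library. The next protein-coding start downstream, of Tm2d1, lies 503 kb from it. Without the Nfia start at 97880119, all 13 peaks of intron 10 would be nearer to Tm2d1 than to Nfia. Intron 2 is 173 kb long and held 5. The distal count of Nfia also depends on the starts used, and with 1 start per gene it was 27 in place of 40. The strongest distal peak, in intron 10, had a signal of 122 in replicate 1 and 96 in replicate 2. A second peak in the same intron, at chr4:98108716-98108885, had 110 and 99, and the third strongest of the gene was upstream, at chr4:97751116-97751285, with 109 and 94. All 3 were at or above percentile 93.6. Across the 40 the signal ran from 28 to 122 in replicate 1 (median 58) and from 18 to 99 in replicate 2 (median 51.5). A further 5 shared peaks inside Nfia were nearer a start of E130114P18Rik, which lies within Nfia, and they were weaker, from 29 to 64 in replicate 1 and from 21 to 49 in replicate 2.

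Nfib (ENSMUSG00000008575.17, chromosome 4, 82290173 to 82705750, minus strand) also had 6 shared promoter peaks, but 5 of them stood at the starts inside the gene record. The 5′-most start, at 82705750, had 1 shared peak with a signal of 67 and 50. The starts between 82505308 and 82505770, which lie 200.0 kb downstream and serve 6 of the coding transcripts, had 5 in each library, all shared. The strongest, at chr4:82505236-82505425, had 103 and 96, and the one printed above had 103 and 91. These peaks sat in 1 hotspot, a wider region of enrichment called by the authors, of 3465 bp in replicate 1 and 3346 bp in replicate 2. Only 0.058% and 0.115% of the hotspots of the libraries were as wide. It held 7 peaks in replicate 1 and 6 in replicate 2.

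The distal peaks of Nfib were spread over the whole gene and beyond its end. Of 60, 42 were intronic, 14 lay downstream and 4 upstream, and the farthest was 477 kb from the nearest start. Intron 1 of Nfib-212, which is 207 kb long and separates the 2 groups of starts, held 26 of them, and intron 2 of Nfib-203 held 9. The strongest, printed above, lay 7.53 kb upstream of the inner starts and had a signal of 121 in replicate 1 and 130 in replicate 2, at percentile 98.7. It had 81.2% G and C, against a median of 48.9% over the 114 distal shared peaks of the family. The next strongest were chr4:82634496-82634665, with 105 and 91, and chr4:82542236-82542385, with 98 and 85, both in intron 1. No annotated transcript of any type started within 1 kb of these 3 peaks. The 14 downstream peaks extended over sequence with no other protein-coding start, since the next gene on that side, Mpdz, starts 1062 kb from the nearest Nfib start. One of them, at chr4:82065676-82065845, lay 113 bp from the start of the non-coding Gm5860.

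**Figure D3:**
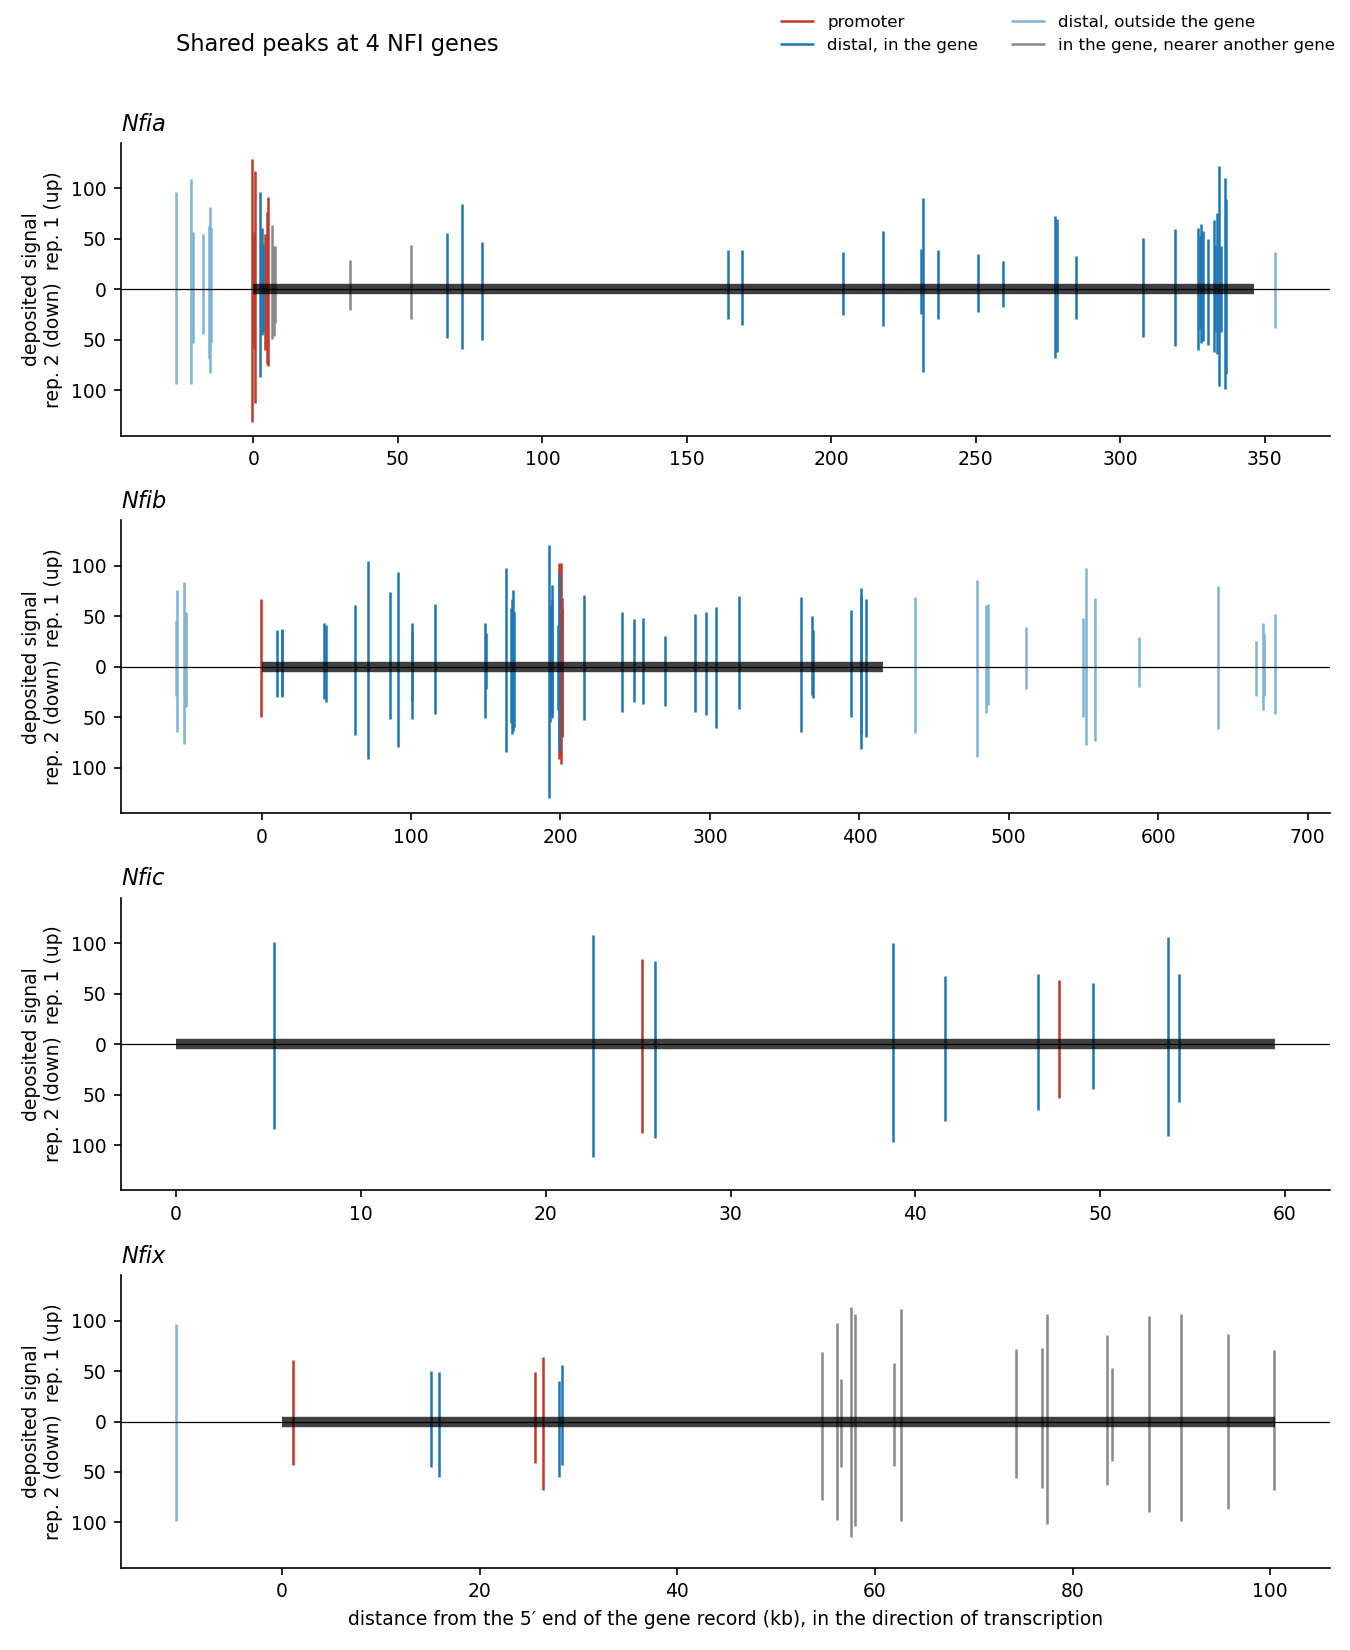
Shared peaks at each NFI gene by distance in kb from the 5′ end of the gene record, in the direction of transcription, with the deposited signal of replicate 1 upward and of replicate 2 downward and the black bar marking the gene. Nfia shows a cluster near its end, Nfib peaks along the gene and downstream, and Nfix a run of strong grey peaks that are nearer the start of another gene.

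Nfic (ENSMUSG00000055053.18, chromosome 10, 81396186 to 81455635, minus strand) had few peaks, and they were strong. Its 9 distal shared peaks were all intronic and within 9.22 kb of a start, and their median percentile was 88.1. The strongest, printed above, had a signal of 108 in replicate 1 and 112 in replicate 2. The next were chr10:81401836-81402045 in intron 9, with 106 and 91, and chr10:81416736-81416985 in intron 2, with 100 and 97. The lowest signal among the 9 was 61 in replicate 1 and 44 in replicate 2. The open starts were not the outermost one. The 5′-most start, at 81455635, and the 3 starts from 81427114 to 81427187 had no peak within 1 kb in either library. The start at 81431005 had 1 shared peak, with 84 and 88, and the start at 81407641 had 1, with 64 and 53. The neighbouring starts, of Smim24 and Celf5, lie 14.0 and 17.4 kb away, which bounds the sequence that can be assigned to Nfic.

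Nfix (ENSMUSG00000001911.16, chromosome 8, 84699876 to 84800344, minus strand) had its strongest open sites where the nearest start belongs to another gene. Of its 23 shared body peaks, 16 were nearer a start of G430095P16Rik or of Lyl1, both inside the Nfix record, and 2 of these were within 1 kb of such a start. The 16 had a median percentile of 85.2, against 58.9 for the 4 distal peaks inside Nfix that were nearest to Nfix itself. Intron 2 of Nfix-202 held 7 of them between 84737676 and 84745805, with a median percentile of 92.5. The strongest, printed above, had a signal of 114 in both replicates, and chr8:84737676-84737825 had 112 and 99. With the starts of other genes inside Nfix left out, an alternative chosen after seeing the data, Nfix had 12 distal shared peaks in place of 5. The distal count of Nfix thus depends on the assignment.

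The strongest promoter peak of Nfix had a lower signal than that of the other 3 genes in both libraries. The first group, 3 starts from 84800024 to 84800344, had 1 shared peak, with a signal of 61 in replicate 1 and 43 in replicate 2. Replicate 2 had 4 peaks there and replicate 1 had 1. The second group, at 84773396 and 84774369, had 2 shared peaks, with 64 and 68 in the stronger and 49 and 41 in the weaker. The strongest distal peak was intergenic, 10.7 kb upstream of the first starts, with 97 and 99. The other 4 had 40 to 56 in replicate 1 and 43 to 55 in replicate 2, and did not overlap with it in either library. RefSeq lists 4 starts for Nfix, 3 of them within 1.46 kb of a start used here, and the fourth, at 84780082, had no shared peak and 2 peaks in replicate 2.

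The libraries agreed on most peaks of the family. Of the Nfia peaks, 76.8% in replicate 1 and 84.1% in replicate 2 were shared, of the Nfib peaks 75.3% and 84.0%, of the Nfic peaks 85.7% and 92.3%, and of the Nfix peaks 80.0% and 75.7%. Over all peaks the shares were 69.8% and 73.1%. All 152 shared peaks lay in hotspots of both libraries. The share over all shared peaks was not counted, so nothing particular to these genes can be read from this. Signals ran higher in replicate 1 at 42 of 51 shared peaks of Nfia, 46 of 66 of Nfib, 7 of 11 of Nfic and 15 of 24 of Nfix, as the list medians do. Across the 114 distal shared peaks the rank correlation of the signals (Spearman's rho) was 0.895, and over all 87994 distal shared peaks it was 0.889. It is a correlation across regions within the same 2 libraries.

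**Figure D4:**
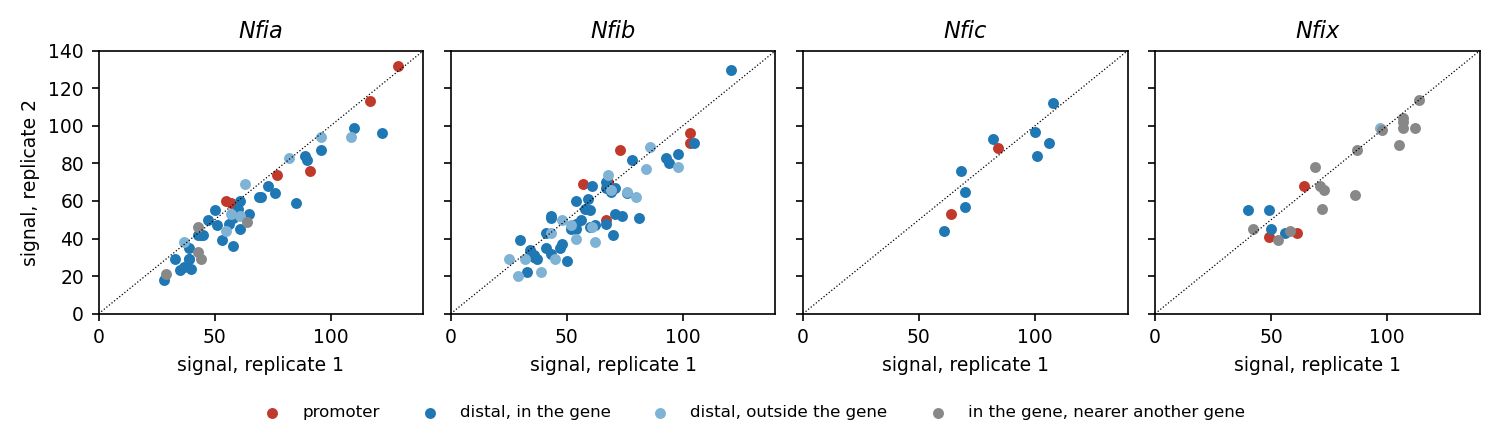
Deposited signal in replicate 1 against replicate 2 for every shared peak of the 4 NFI genes, coloured by class, with the dotted line of equal values. Most points lie below the line, and the strongest points of Nfix are those nearer the start of another gene.

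Peaks found in 1 library with no peak or hotspot of the other were 9 in replicate 1 and 7 in replicate 2 for Nfia (13.0% and 11.1% of its peaks). They were 20 and 11 for Nfib (21.5% and 13.6%), 2 and 1 for Nfic (14.3% and 7.69%), and 4 and 8 for Nfix (13.3% and 21.6%). Over all peaks 22.1% and 22.7% were of this kind. The strongest at Nfia were chr4:97754416-97754565 in replicate 1, with a signal of 54, and chr4:98102736-98102885 in replicate 2, within intron 10, with 39. At Nfib they were chr4:82510716-82510865, with 65, and chr4:82538596-82538745, with 59, both in intron 1. At Nfic they were chr10:81414816-81414965, with 66, and chr10:81404216-81404365, with 47. At Nfix they were chr8:84724796-84724945, with 57, and chr8:84701676-84701825, with 63. None of these reached percentile 78 of its own list, with 77.2 the highest, in replicate 2 at Nfix. Every peak of the 4 genes above that percentile thus had a peak or a hotspot in the other library. In the list of replicate 2 this private peak ranked below the strongest shared promoter peak of Nfix, which had a signal of 68 and percentile 80.7. It ranked above the remaining shared promoter peaks of Nfix, with 43 and 41.

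Taken as 1 set, the distal peaks of the family ranked higher in signal than distal peaks in general, with no test of the difference. Their median percentile was 66.0, against 57.6 over all distal shared peaks, and 13 of 114 (11.4%) were above percentile 90, against 5.86%. These 13 were 5 of 40 for Nfia, 3 of 60 for Nfib, 4 of 9 for Nfic and 1 of 5 for Nfix. The share of Nfib, 5%, was thus below the general one. By gene the medians were 65.2 for Nfia, 64.7 for Nfib, 88.1 for Nfic and 60.2 for Nfix. The median distance to the nearest start was 66.0 kb, against 33.8 kb. The longer distances were those of the larger genes, with medians of 137 kb for Nfia and 77.5 kb for Nfib, and those of Nfic and Nfix were 5.29 and 10.04 kb. Within 100 kb of a start lay 40.0% of the distal shared peaks of Nfia, 61.7% of those of Nfib and 100% of those of Nfic and of Nfix, against 76.0% of all. The median share of G and C was 47.6% for Nfia and 47.5% for Nfib, 59.3% for Nfic and 64% for Nfix, against 49.4% over all. Of the 114, 1 was over 50% repeat sequence, against 3.66% of all distal shared peaks. The 17 promoter peaks had a median percentile of 78.5, against 82.6 over all shared promoter peaks.

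None of the 114 distal shared peaks held the complete NFI palindrome in its central 150 bp. A count of 0 of 114 allows a share of up to 2.63%, for counting error only, and the share over all distal shared peaks was 0.0932%, so a difference was not detectable. In windows 500 bp to either side of all distal shared peaks the share was 0.00739%. No distal peak of the family matched 9 or more of the 10 fixed bases, which 1.03% of all distal shared peaks did. At 8 or more the family had 8 of 114 (7.02%), 6 of them at Nfib and 2 at Nfic, against 6.94% over all and 4.6% in the flanking windows. The single arm TTGGCA was in 10 of 114 (8.77%), against 8.65% over all and 7.57% in the flanks. These shares lie near the general ones.

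Among the other words, the E-box CATCTG, bound by basic helix-loop-helix factors such as Twist1, was the most frequent, in 21 of 114 (18.4%) against 19.9% of all. The E-box CAGCTG was in 14 (12.3%) against 16.6%, with 11 at Nfib and 2 at Nfia. The word TTTATTG, bound by posterior Hox factors, was in 9 (7.89%) against 3.91%, with 5 at Nfib and 4 at Nfia. GGAATGT, bound by TEAD factors, was in 6 (5.26%) against 3.6%, with 4 of them at Nfia. AACAAT, the Sox word, was in 8 (7.02%) against 6.37% of all and 8.22% of flanks. By gene it was in 7 of 60 at Nfib, 0 of 40 at Nfia and 1 of 9 at Nfic. AGATAA, the GATA word, was in 3 (2.63%) against 3.88% of all and 8.54% of flanks. GGGCGGG was in 5 (4.39%) against 3.96%, and the CTCF core in 1, the Nfib peak printed above, against 2.31%. The homeodomain word TAATTA, the AP-1 word TGANTCA and the Runx word TGTGGTT were in 6 each, against 5.29%, 4.57% and 3.92% of all. The forkhead word TGTTTAC was in 3, against 2.37%. The Tcf and Lef word CTTTGAT and the Pbx and Hox word TGATTGAT were in 1 each, against 2.9% and 0.62%, and the Gli word TGGGTGGTC was in 0, against 0.261%. Words can overlap, and each was counted on its own. Counts this small give no order among the genes.

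**Figure D5:**
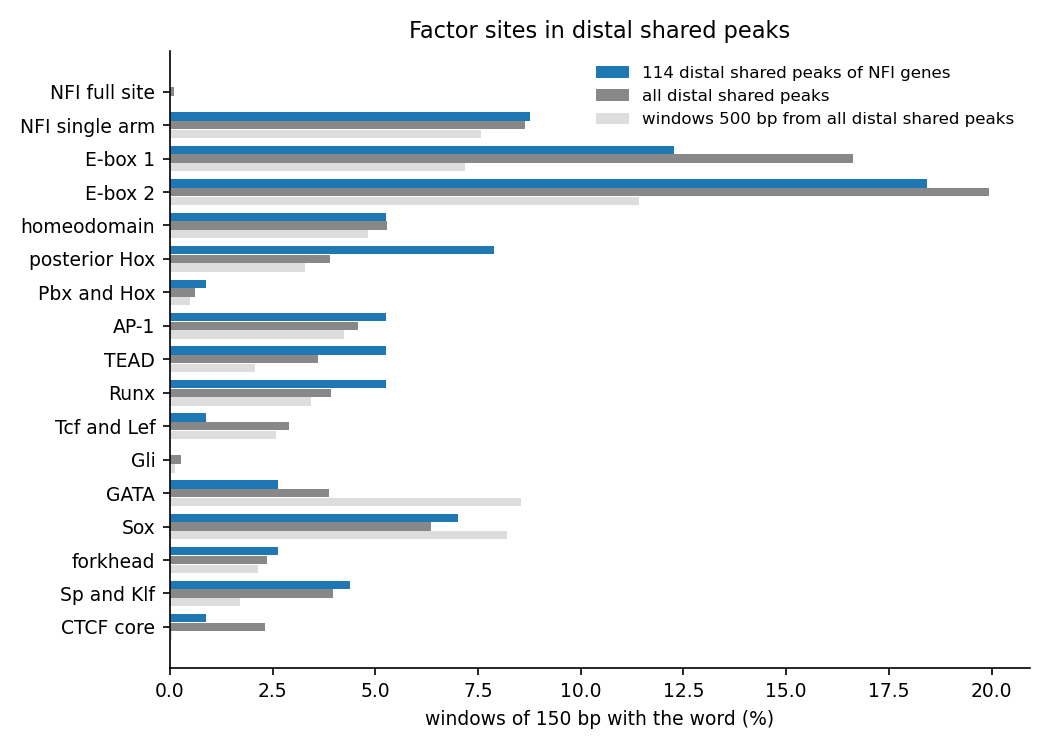
Share in percent of 150 bp windows with each searched factor word, for the 114 distal shared peaks of the NFI genes, all distal shared peaks and windows 500 bp to either side of those. E-box 1 is CAGCTG and E-box 2 is CATCTG, which are the most frequent words in both peak sets, at 12.3% and 18.4% in the NFI genes.

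Genes known as regulators, partners or targets of NFI factors were read from the same lists. Of 12 such genes, 9 (75%) had a shared promoter peak, near the 66.5% of all protein-coding genes, and their median was 7.5 distal shared peaks, against 1 over all genes. Sox9, the regulator of cartilage formation, had 68 (108 in replicate 1 and 104 in replicate 2), and Hmga2, a chromatin protein of growing embryonic tissue, had 43 (64 and 66). Hes1 with 38 and Zbtb20 with 31 were the other 2 at 20 or more. These were thus 4 of 12, against 4.08% of all protein-coding genes, with no test of the difference. Fabp7 and Gfap, genes of glial cells, had no promoter peak in either library, and 1 and 2 distal shared peaks. Pax7, a regulator of muscle precursors, had no shared promoter peak, with 0 in replicate 1 and 5 in replicate 2.

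The genes whose counts were most like those of each member were found by distance over 6 values, the log2 of 1 plus the promoter, body and distal counts of each library, each scaled to unit SD over all genes. Trio was closest to Nfia (0.23), followed by Nrg1 and Nckap5. Kif26b was closest to Nfib (0.19), followed by Magi2 and Agap1. Actn4 was closest to Nfic (0.11), followed by Atf6 and Ppfia2. Nfix had no such close neighbour, with Reln at 0.70, then Prkcz and Patj. Among the members Nfia and Nfib were nearest to each other, at 0.72, and all other pairs were at 1.71 or more.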

How the data were processed

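DNase-seq peaks and hotspots were deposited for each of 2 libraries of 1 group. Per the deposited file descriptions, the authors called them on each library's filtered alignments to mm10. Which aligner and peak caller they used is not given in the sources used here. Peaks of 150 bp carry a signal in the deposited lists, from 2 to 149 on the 21 named chromosomes. Hotspots carry a deposited −log10 q, and a value of 100 was taken to be the ceiling. Depth, and the precision it would give, is unknown, since the lists hold no counts of reads. In each list 181 peaks on other sequences were left out. Some peaks (5.48% and 8.18%) have a signal written with a decimal and were kept. Neighbouring peaks of 1 list can overlap, and counts in a library are of listed peaks.

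Starts and genes came from GENCODE M21 and sequences from the RefSeq copy of GRCm38. The RefSeq table of promoters matched 3 of 4 members by symbol, all except Nfib. Introns are those of the longest coding transcript at a position. The peaks named are, per gene, the shared promoter peaks (the strongest 3 where over 4), the strongest 3 distal shared peaks and the strongest peak private to each library. Members, lists, words and alternatives were chosen with earlier results of these data known. Alternatives changed overlap, threshold, window, starts, reach, regions and replicates. Steps were tested on simulated data. Python 3.11.15, NumPy 2.4.6, pandas 2.3.3, pysam 0.24.0 and Matplotlib 3.10.9 were used.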

Additional observations from a re-analysis of the deposited data

How the results depend on the processing

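Of 109 values recomputed for 13 results under 14 settings, 2 of them chosen after seeing the data, 87 were called unchanged. For counts this meant within 1.5 times the reported value. The share with the full NFI site, reported as 0, was called unchanged only where it stayed at 0. That says little for a site found in 0.0932% of all distal shared peaks. With only peaks above the median signal, Nfia had 25 distal and 24 body shared peaks and Nfib 38 distal. Within a reach of 100 kb, distal counts were 16 for Nfia and 37 for Nfib. With 1 start per gene, promoter counts were 3 for Nfia, 1 for Nfib, 0 for Nfic and 0 for Nfix, and distal counts 5 for Nfic and 8 for Nfix. A promoter window of 2 kb gave 10 promoter peaks for Nfia, 5 for Nfic and 5 for Nfix, and 3 distal ones for Nfix. Nfic had 1 promoter peak with a window of 500 bp and 1 with an overlap of at least 75 bp. Without starts of other genes inside it, Nfix had 12 distal peaks. Leaving out each replicate, the peaks of the remaining library gave 7 to 9 distal, 4 to 7 promoter and 29 to 35 body peaks for Nfix. The higher values came without replicate 1. The single arm TTGGCA in place of the full NFI site gave 8.77%. With peaks with a decimal removed, all 13 results were called unchanged. No paired analysis was possible because there is 1 group and no contrast. Unknown depth limits the counts: a weak site missing from a list is not shown to be closed.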
